A study of Mus musculus with 12 samples.

Results

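Hepatic stellate cells that had been given Cre to delete Hk2 and then received lactate (LAC) were set against freshly isolated, quiescent stellate cells (QS), to see how far from quiescence the treated cells lay. The comparison used 6 of the 12 RNA libraries of the series, 3 of LAC and 3 of QS, and all 12081 genes of the deposited table. Every group came from the livers of Hk2 fl/fl mice, in which Cre recombinase can cut out part of Hk2. This gene encodes hexokinase 2, which catalyses the first step of glycolysis. QS cells were isolated on a density gradient and had neither culture, virus nor lactate. LAC cells were transduced with an adenovirus carrying Cre fused to eGFP (Ad-Cre), cultured in low-glucose DMEM (1000 mg/L glucose) with 10% serum over 6 days, and given 10 mM lactate for 24 h. A further pair of groups, each of 3 libraries, serves as reference points. ACT cells received a virus with eGFP alone and were cultured for 6 days. KO cells received Ad-Cre and 6 days of culture without added lactate. Age and sex of the mice, and whether the libraries came from separate animals or cultures, are not given in the sources used here. All p-values therefore cover only the spread among the deposited libraries, which may be technical. Between LAC and QS, the contributions of culture, serum, virus, Cre and lactate cannot be told apart.

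Stellate cells are the pericytes of the liver sinusoid. At rest they store vitamin A as retinyl esters in lipid droplets, and after injury or on culture plastic they turn into myofibroblasts, which contract and deposit fibrillar collagen. This activation is known to be accompanied by faster glycolysis, of which lactate is an end product, and lactate can also serve as a source for lactylation of histones. Quiescence is read from retinoid storage and pericyte genes such as Lrat, Reln and Rgs5, and activation from contractile genes such as Acta2 and from collagens.

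Levels are given in CPM, the authors' normalised read counts scaled to library size. Changes are log2 fold changes on log2(CPM + 1), LAC minus QS, with the standard error (SE) and the adjusted p of limma. The listed genes held an estimated 4350000 to 10140000 reads in the QS libraries and 8670000 to 11050000 in the LAC libraries. Genes are termed called where this adjusted p was below 0.05.

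Hk2 lies at chr6:82725025-82774454 on the minus strand of mm10. The 3 QS libraries held 73.3, 66.7 and 73.5 CPM and the 3 LAC libraries 18.7, 19.6 and 19.7 CPM. No LAC library overlapped QS, and the log2 change was -1.83 (SE 0.0776, adjusted p = 4.44e-11). An exact two-sided permutation test gave p = 0.1, the smallest value that 3 against 3 libraries allow. The mean was 12.1 ± 1.48 CPM in KO and 181 ± 0.828 CPM in ACT (SD, n = 3 each), so that LAC held 10.7% of the ACT level and lay above KO (log2 difference 0.64, adjusted p = 1.66e-05). The values count reads over the whole gene and do not single out the part that Cre removes. Hk1, the ubiquitous hexokinase, was higher in LAC than in QS (225 ± 9.91 against 118 ± 4.5 CPM, log2 change 0.92), and Hk3, a hexokinase of myeloid cells and a member of the macrophage list, was lower (36.3 ± 3.07 against 96.8 ± 4.3 CPM, log2 change -1.39).

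Most genes differed between LAC and QS. Of 12081 genes, 8890 were called (73.6%), 4521 higher (37.4%) and 4369 lower (36.2%) in LAC. A fold of at least 2 was reached by 1959 genes called higher (16.2%) and 1668 called lower (13.8%), and a fold of at least 4 by 796 (6.59%) and 717 (5.93%). The median change of all genes was 0.01 and the median absolute change 0.57 on the log2 scale. Against the same QS libraries, the median absolute change was 0.58 in ACT and 0.56 in KO. A fold of at least 4 was reached by 854 higher (7.07%) and 910 lower genes (7.53%) in ACT, and by 580 higher (4.8%) and 767 lower genes (6.35%) in KO. The median gene thus lay at nearly the same distance from QS in each cultured group, while large rises were fewest in KO and large falls fewest in LAC.

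**Figure D1:**
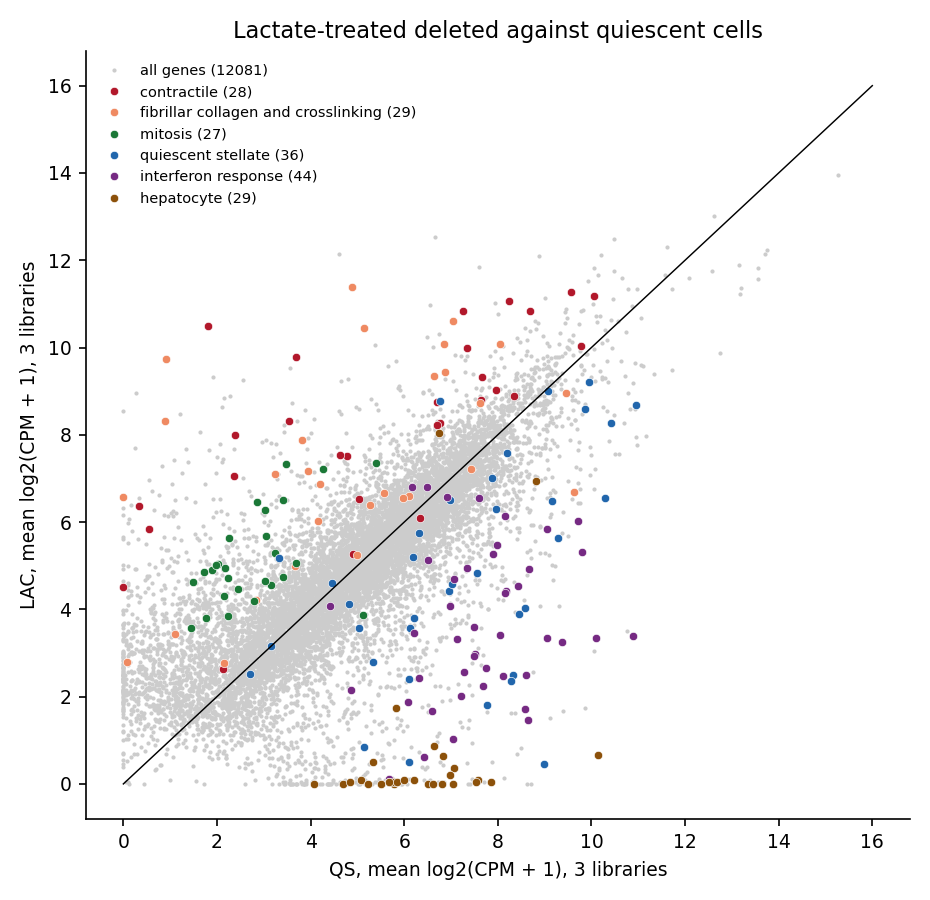
Mean level of each gene in LAC (vertical axis) against QS (horizontal axis), both as log2(CPM + 1) over 3 libraries, with members of 6 gene lists in colour and the line of equal levels. Contractile, collagen and mitosis genes lie mostly above the line, and quiescent stellate, interferon and hepatocyte genes mostly below it.

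The direct tests of LAC against the other cultured groups found fewer and smaller differences. Against ACT, 3362 genes were higher (27.8%) and 2618 lower (21.7%), with a median absolute change of 0.28 on the log2 scale. Against KO, 2415 were higher (20%) and 2542 lower (21%), with a median absolute change of 0.23.

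RNA of other liver cells was present in all groups and differed between them. The summed level of 32 endothelial markers was 20157 to 20914 CPM in QS, 5740 to 5968 in LAC, 1177 to 1191 in ACT and 10473 to 11548 in KO. For 29 macrophage markers the sums were 6626 to 6778 CPM in QS, 7332 to 7346 in LAC, 25767 to 26412 in ACT and 769 to 779 in KO. Without Lyz2 and Gpnmb, which rose, the other 27 summed to 6026 to 6146 CPM in QS and 3073 to 3085 in LAC. The 14 Kupffer cell markers, which label the resident macrophages of the liver, summed to 6517 to 6698 CPM in QS and 962 to 1032 in LAC, with Timd4 and C6 at 0 in every LAC library. The 29 hepatocyte markers summed to 3807 to 3901 CPM in QS and 380 to 397 in LAC. Without Ass1, which other cells also make, the remaining 28 summed to 3698 to 3802 CPM in QS and 121 to 130 in LAC. In a bulk library, fewer cells of a type and less RNA per cell cannot be told apart, and the part of these cells in the differences between LAC and QS was not tested.

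**Figure D2:**
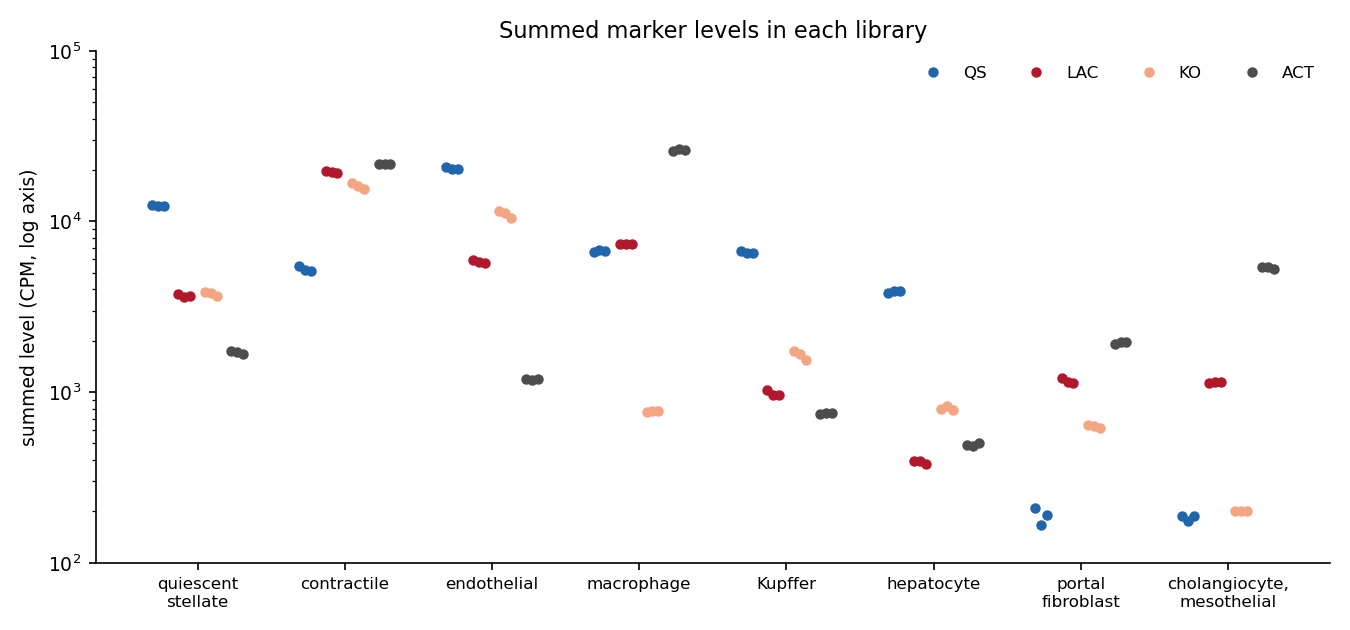
Summed level of each marker list in every library, in CPM on a log axis, with 3 points a group. LAC libraries lie below QS for quiescent stellate, endothelial, Kupffer and hepatocyte markers, and between ACT and KO for macrophage and endothelial markers. They lie above QS for contractile, portal fibroblast and cholangiocyte or mesothelial markers. Spp1, which macrophages also make, holds most of the cholangiocyte or mesothelial sum in LAC. Of the 14 members, 5 were called higher (35.7%) and 4 lower (28.6%), against 37.4% and 36.2% of all genes.

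The contractile apparatus of the myofibroblast was high in LAC. Of 28 contractile genes, 27 were called higher and 1 lower than in QS, with a median log2 change of 2.09, where the median of all genes was 0.01. Acta2, smooth muscle actin and the standard marker of activated stellate cells, lies at chr19:34241090-34255590 on the minus strand. Its level was 3.82, 2.64 and 1.46 CPM in QS and 1469, 1432 and 1401 CPM in LAC, a 543-fold difference between the means. The groups lay far apart and the spread within each was small beside the difference (log2 change 8.68, SE 0.159, adjusted p = 5.06e-15). Tagln, the actin-binding protein transgelin, went from 12.9, 9.86 and 12.9 CPM to 876, 890 and 892 CPM (log2 change 6.11). Cnn1, the calponin of smooth muscle, averaged 0.273 ± 0.232 CPM in QS and 81.4 ± 9.6 CPM in LAC, and tropomyosin Tpm2 4.25 ± 0.436 and 255 ± 5.38 CPM. Des, the intermediate filament desmin of pericytes, rose by 2.93 on the log2 scale. The member called lower was Smtn (log2 change -0.24), and it lost its call when every library was scaled to an equal total (adjusted p = 0.0998), with quantile normalisation (0.065), without the first QS library (0.068) and without the third LAC library (0.057).

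**Figure D3:**
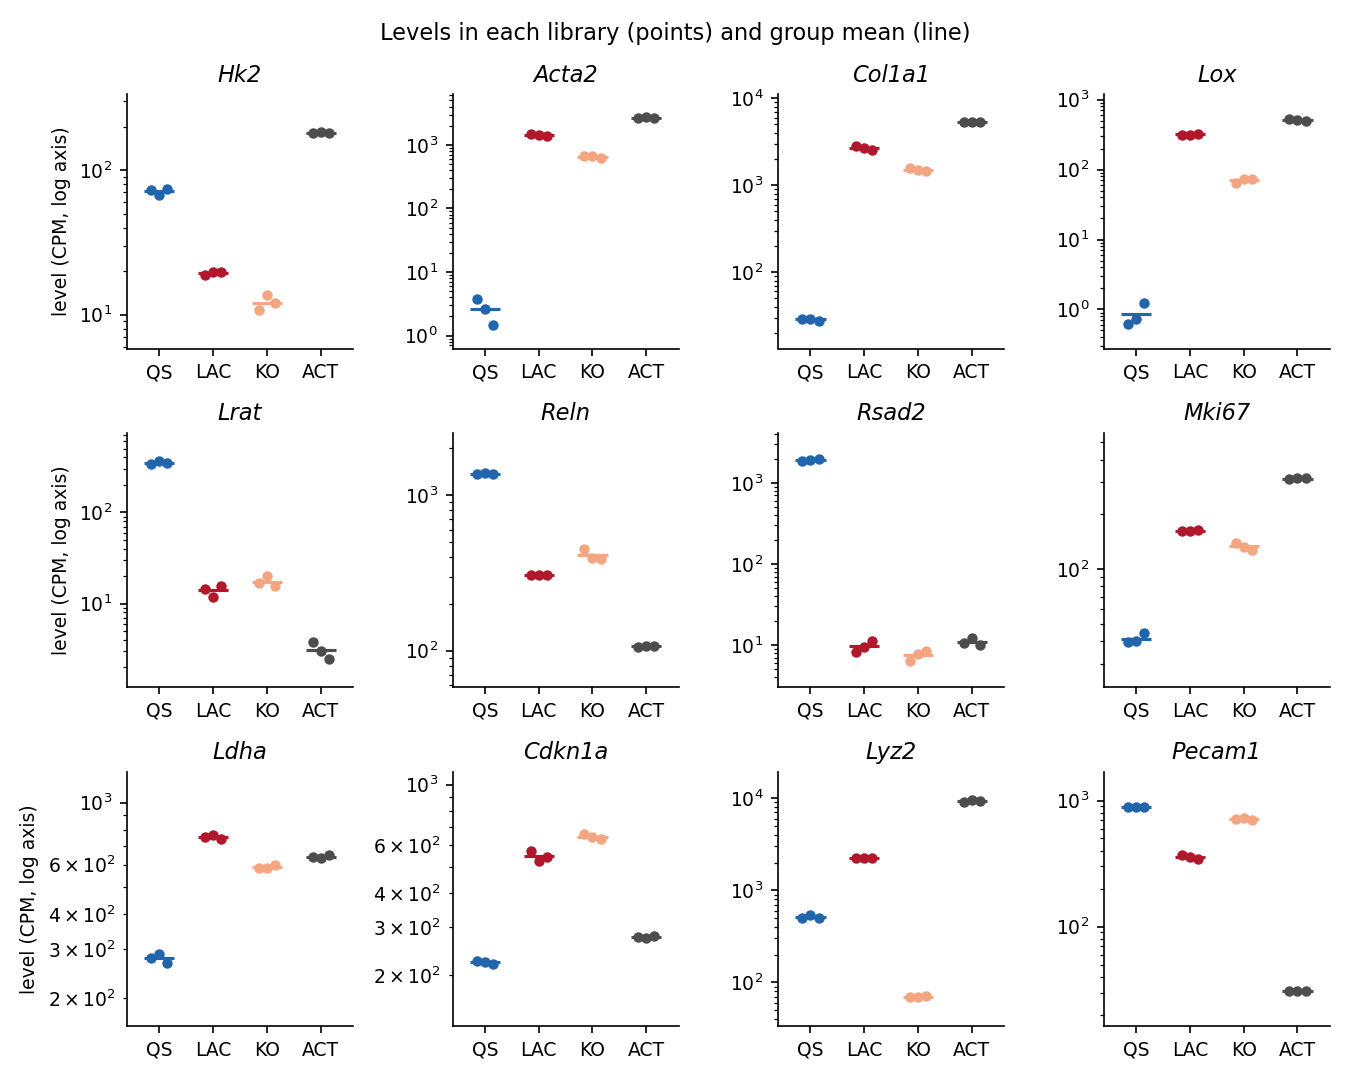
Levels of 12 genes in each of the 12 libraries, in CPM on log axes that differ between panels, with points for libraries and lines for group means. LAC lies far above QS for Acta2 (1401 to 1469 against 1.46 to 3.82 CPM) and far below it for Lrat (11.8 to 15.8 against 340 to 363 CPM) and Rsad2 (8.26 to 11.1 against 1840 to 1950 CPM).

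Acta2 was nevertheless lower in LAC than in ACT, which averaged 2656 ± 48 CPM, and higher than in KO with 653 ± 29.1 CPM. Both differences passed the test (log2 differences -0.89 and 1.13, adjusted p = 0.000335 and 6.38e-05). Over the contractile list, LAC was higher than ACT in 6 genes (21.4%) and lower in 14 (50%), against 27.8% and 21.7% of all genes. It was higher than KO in 20 (71.4%) and lower in 4 (14.3%), against 20% and 21% of all genes. The list medians against the shared QS libraries were 2.09 in LAC, 2.02 in ACT and 1.68 in KO.

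Fibrillar collagens and the enzymes that crosslink them rose together in LAC. Of 29 genes, 25 were called higher and 3 lower, with a median log2 change of 2.33. Col12a1, a collagen that lies on the surface of fibrils, showed the largest rise of any gene that met the naming rule. It lies at chr9:79598991-79718831 on the minus strand and held 1.76, 0.72 and 0.418 CPM in QS and 878, 836 and 837 CPM in LAC (log2 change 8.82, SE 0.164, adjusted p = 6.03e-15). The gene Col1a1 (chr11:94936224-94953042, plus strand) encodes part of type I collagen, the main fibril collagen. It held 29, 29.3 and 27.6 CPM in QS and 2828, 2667 and 2577 CPM in LAC, a difference of 94-fold. Its partner chain Col1a2 changed less, from 116 ± 7.22 to 691 ± 7.22 CPM (log2 change 2.57). Col3a1, the second large fibril collagen of liver scars, went from 263 ± 13.5 to 1086 ± 23 CPM (log2 change 2.04). Lox, the oxidase that starts collagen crosslinking, held 0.62, 0.72 and 1.25 CPM in QS and 316, 313 and 326 CPM in LAC. Col11a1 had no read in any QS library and held 91.5, 93.5 and 97.2 CPM in LAC, at least 170-fold higher when QS is set to a floor of 3 reads averaged over its libraries. The members called lower were Col14a1, Plod1 and Tgm2. Of these, Col14a1, a collagen of resting fibroblasts, was at 796 ± 1 CPM in QS and 103 ± 1.77 CPM in LAC.

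Collagen levels in LAC lay below ACT for several of these genes. Col1a1 averaged 5341 ± 51.3 CPM in ACT and 1498 ± 67.9 CPM in KO, and Col1a2 3305 ± 18.6 and 213 ± 3.53 CPM. LAC differed from ACT by -0.99 in Col1a1 and by -2.26 in Col1a2, and from KO by 0.84 and 1.70 on the log2 scale, each passing the test. Col12a1 and Col11a1 had higher levels in LAC than in ACT (log2 differences 0.54 and 1.11, adjusted p = 0.0138 and 3.09e-07). Over the list, LAC was higher than ACT in 10 genes (34.5%) and lower in 8 (27.6%), against 27.8% and 21.7% of all genes. It was higher than KO in 16 (55.2%) and lower in 3 (10.3%), against 20% and 21% of all genes.

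Proteins that surround and remodel the fibrils followed with a mixed picture. Of 23 matricellular genes, 17 were higher and 5 lower in LAC than in QS (median log2 change 2.19). Tnc, the wound matrix protein tenascin C, went from 21.1, 24.2 and 25.3 CPM to 4628, 4494 and 4395 CPM (192-fold). It was also higher in LAC than in ACT, which held 1480 ± 8.23 CPM. Thbs1, thrombospondin 1, rose from 101 ± 7.51 to 5958 ± 127 CPM. Fn1, fibronectin, rose from 245 ± 7.18 to 2078 ± 105 CPM but remained far under its 11337 ± 214 CPM in ACT (log2 difference -2.45, adjusted p = 1.54e-13). Spp1, osteopontin, showed the same order, with 97.8 ± 5.82 CPM in QS, 1030 ± 9.88 in LAC and 5084 ± 88 in ACT. Spp1 is also made by cholangiocytes and macrophages. Genes called lower were Tgfbi, Lum, Dcn, Fmod and Ecm1. Dcn, the small proteoglycan decorin that binds collagen fibrils, fell from 2039, 1971 and 1920 CPM to 422, 392 and 420 CPM, and Tgfbi fell from 568 ± 13.3 to 31.6 ± 3.94 CPM.

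Basement membrane genes split by chain. Of 19, 11 were higher (57.9%) and 6 lower (31.6%), against 37.4% and 36.2% of all genes. The share lower was thus near that of all genes, and the median log2 change was 0.59. Col4a5 went from 1.54 ± 0.226 to 205 ± 9.22 CPM, Nid1, which links laminin to collagen IV, from 471 ± 10.7 to 4411 ± 59.6 CPM, and Col4a1 from 1441 ± 88.1 to 5762 ± 73.5 CPM. The chains Col4a3, Col4a4, Lama1, Lama3 and Lama4 and the proteoglycan Agrn were lower. Lama3 held 8, 8.99 and 13 CPM in QS and was listed at 0 in all LAC libraries, at least 32.6-fold lower. Of 26 matrix proteases and inhibitors, 19 were higher and 5 lower (median log2 change 1.36). The stromelysin Mmp10 went from 0.229 ± 0.241 to 494 ± 11.1 CPM, and the related Mmp3 from 7.34 ± 0.968 to 235 ± 9.76 CPM. Both were higher in LAC than in ACT (log2 differences 1.89 and 2.74). Timp1, which inhibits these enzymes, rose from 1.14 ± 0.444 to 169 ± 1.91 CPM.

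**Figure D4:**
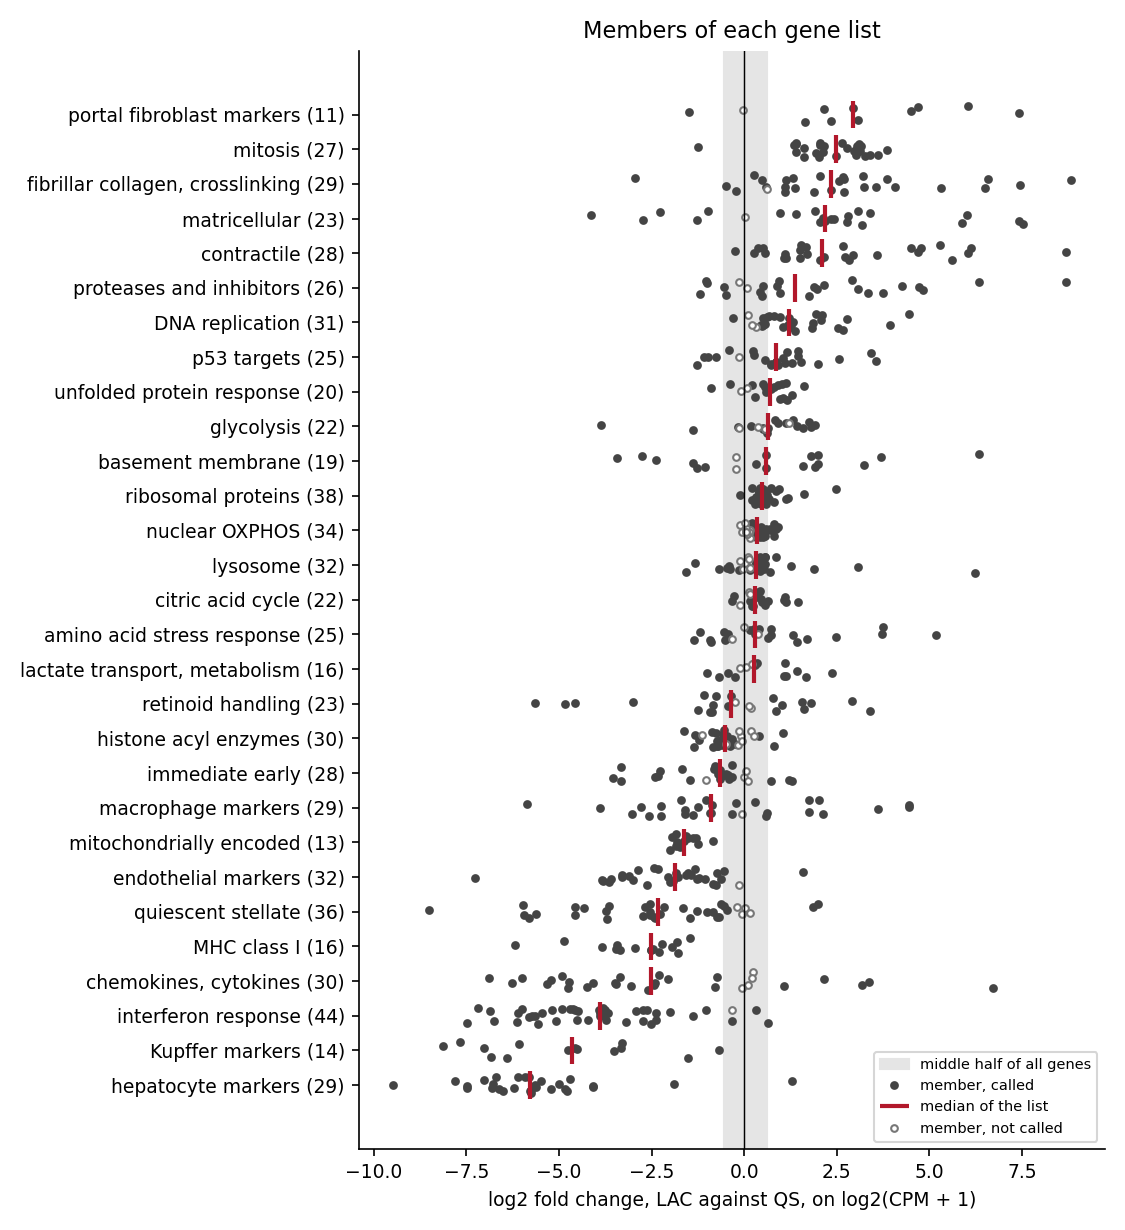
Log2 fold change of LAC against QS for the members of 29 gene lists (number measured in brackets), with filled points for genes called, open points for genes not called, a red bar for the list median and a grey band for the interquartile range of all genes. Medians run from -5.77 for hepatocyte markers to 2.93 for portal fibroblast markers.

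Signalling genes of the TGF-beta family, whose ligands are the main profibrotic signal for these cells, did not move as a group. Of 35, 14 were higher (40%) and 15 lower (42.9%), shares near the 37.4% and 36.2% of all genes. The median of -0.07 ran from -0.11 to 0.03 over the alternative settings. Among ligands, Tgfb2 rose from 3 ± 1.01 to 74.2 ± 1.09 CPM and Tgfb3 from 3.38 ± 0.909 to 166 ± 5.15 CPM, while Tgfb1 fell from 175 ± 7.43 to 118 ± 11.3 CPM. Inhba, the activin A chain, rose from 24.2 ± 1.85 to 599 ± 10.7 CPM, and its extracellular antagonist Fstl3 from 0.0709 ± 0.123 to 20.6 ± 1.63 CPM. Of the latent TGF-beta binding proteins, Ltbp2 rose from 0.197 ± 0.178 to 206 ± 2.65 CPM and Ltbp4 fell from 476 ± 57.4 to 16.2 ± 3.5 CPM. The growth factor list was divided as well, with 17 higher (45.9%) and 19 lower (51.4%) of 37, against the same shares of all genes. Its median of -0.23 ran from -0.28 to 0.45 over the settings, the last without marker genes of other cells. The PDGF receptors Pdgfra (82.3 ± 1.92 to 235 ± 5.66 CPM) and Pdgfrb (75.7 ± 0.671 to 159 ± 4.08 CPM) were higher, and so were the EGF receptor Egfr (24 ± 1.15 to 355 ± 2.46 CPM) and its ligand Ereg (9.31 ± 1.68 to 190 ± 1.69 CPM). Hgf, the hepatocyte growth factor that quiescent stellate cells make, fell from 247 ± 6.52 to 77.4 ± 1.41 CPM. Kdr, a VEGF receptor of endothelial cells, fell from 1983 ± 19.4 to 246 ± 7.73 CPM.

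Genes of the mechanically regulated cofactor YAP and its TEAD partners were higher in 17 of 21 cases and lower in 3 (median log2 change 1.45). Ankrd1, a standard YAP target, went from 9.3, 10.1 and 9.82 CPM to 300, 295 and 303 CPM. F3, the tissue factor that starts coagulation, went from 3.82, 2.52 and 3.76 CPM to 396, 407 and 394 CPM. Lower members were Wwtr1, Amotl1 and Nuak2.

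Quiescent stellate genes were mostly lost in LAC. Of 36 measured, 30 were lower, 2 higher and 4 not called, with a median log2 change of -2.33. Lrat, the acyltransferase that makes the retinyl esters of the lipid droplets, lies at chr3:82892579-82903973 on the minus strand. It held 340, 363 and 352 CPM in QS and 14.4, 11.8 and 15.8 CPM in LAC, a 25.1-fold loss (log2 change -4.57, SE 0.13, adjusted p = 5.5e-13). Colec10, a collectin secreted by stellate cells, lost most of all members. It lies at chr15:54410774-54466358 on the plus strand and went from 491, 503 and 514 CPM to 0.266, 0.528 and 0.338 CPM, a log2 change of -8.52 that ends at a few reads a library. The related Colec11 went from 217 ± 11.4 to 2.52 ± 0.634 CPM, and the peptide receptor Vipr1 from 318 ± 11.8 to 4.66 ± 0.615 CPM. Ednrb, an endothelin receptor, and Abcc9, a subunit of the potassium channel of pericytes, fell by 3.74 and 3.65. Cygb, the globin of stellate cells, went from 68.3 ± 7.04 to 4.33 ± 0.351 CPM.

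Other quiescence genes kept a considerable level. Reln, the secreted glycoprotein reelin, held 1363, 1384 and 1377 CPM in QS and 305, 305 and 306 CPM in LAC, or 22.2% of the QS level. Rgs5, a pericyte regulator of G protein signalling, held 570 ± 14 CPM in QS and 88 ± 2.9 in LAC. The stellate transcription factors Hand2 and Lhx2 fell by less, from 72.1 ± 2.58 to 35.6 ± 3.39 CPM and from 27.2 ± 3.61 to 16.4 ± 1.07 CPM (adjusted p = 6.85e-07 and 0.000842). The 2 members called higher were the transcription factor Gata6 (8.97 ± 0.727 to 35.1 ± 2.92 CPM) and the ligand Bmp10 (108 ± 2.69 to 435 ± 2.14 CPM). Not called were Pparg, Bambi, Notch3 and Prelp. Summed over the list, levels were 12304 to 12488 CPM in QS, 3627 to 3771 in LAC, 3674 to 3851 in KO and 1671 to 1731 in ACT. The sums of LAC and KO overlapped.

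The quiescent list was closer to QS in LAC than in ACT. Its median against QS was -2.33 in LAC, -3.64 in ACT and -1.75 in KO. The direct test found 29 of its 36 genes higher in LAC than in ACT and 4 lower, with a median difference of 1.47, where 27.8% of all genes were higher. Rgs5 (8.46 ± 0.323 CPM in ACT) and Reln (107 ± 0.869 CPM in ACT) were higher in LAC by 3.23 and 1.51. Lrat was at 3.09 ± 0.637 CPM in ACT, 1.88 lower than in LAC. Against KO, 9 genes of the list were higher in LAC (25%) and 19 lower (52.8%), with a median of -0.41. Of all genes, 20% were higher than in KO and 21% lower. Endothelial markers moved in the same order over the 3 cultured groups, with sums of 5740 to 5968 CPM in LAC, 1177 to 1191 in ACT and 10473 to 11548 in KO, and the part of these cells in the quiescent list was not tested. Without Gata4, Rspo3, Fcna and Plvap, which the list shares with lists of other cell types, 26 of 32 genes were lower than in QS and 2 higher, with a median of -2.42.

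Genes that handle retinoids did not all follow Lrat. Of 23, 8 were higher (34.8%) and 12 lower (52.2%) in LAC, against 37.4% and 36.2% of all genes. Aldh1a2, which makes retinoic acid, rose from 0.138 ± 0.12 to 11 ± 0.455 CPM. Crabp1, a retinoic acid-binding protein listed at 0 in all QS libraries, held 7.81, 7.28 and 4.73 CPM in LAC, at least 12-fold higher. The alcohol dehydrogenase Adh1 (42.1 to 56.2 CPM in QS, 0 in all LAC libraries, at least 162-fold lower) and the plasma retinol carrier Rbp4 (39.1 ± 1.42 to 0.409 ± 0.0488 CPM) were lower. Both are also abundant in hepatocytes, whose marker sum without Ass1 was 3698 to 3802 CPM in QS and 121 to 130 CPM in LAC, and their share in these genes was not tested.

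Glycolysis genes other than Hk2 were mostly higher in LAC than in QS. Of 22, 15 were higher and 3 lower, with a median log2 change of 0.64. Pgam1, a mutase late in the pathway, went from 177, 176 and 179 CPM to 656, 677 and 681 CPM (log2 change 1.92). The enolase Eno1 rose from 340 ± 22 to 1181 ± 9.4 CPM, Tpi1 from 113 ± 3.69 to 345 ± 5.62 CPM and Gapdh from 697 ± 30.9 to 1874 ± 73.1 CPM. The lower members were Hk3, Pfkfb3 and Pklr, the last being the pyruvate kinase of hepatocytes, at 12.9 to 13.9 CPM in QS and 0 in all LAC libraries. Against ACT, LAC was higher in 11 glycolysis genes (50%) and lower in 2 (9.09%), where 27.8% of all genes were higher and 21.7% lower. Against KO, LAC was higher in 9 (40.9%) and lower in 0, with 13 not called. Of all genes, 20% were higher than in KO and 21% lower.

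Genes of lactate transport and conversion went both ways. Of 16, 9 were higher (56.2%) and 4 lower (25%) than in QS, against 37.4% and 36.2% of all genes. Ldha, the lactate dehydrogenase subunit that favours lactate formation (chr7:46841475-46855627, plus strand), held 278, 288 and 268 CPM in QS and 756, 766 and 740 CPM in LAC. The groups did not overlap and the log2 change was 1.44 (SE 0.0319, adjusted p = 4e-14). Ldhb, the subunit that favours lactate use, held 31.1, 30.8 and 34.7 CPM in QS and 28.1, 28.1 and 24.3 CPM in LAC. Its change of -0.26 was called (adjusted p = 0.00924), but not with an equal total per library (0.0791) or without the third LAC library (0.0509). Slc16a3, the monocarboxylate transporter MCT4 that exports lactate, rose from 14 ± 1.31 to 46.3 ± 0.562 CPM. It was at 15.4 ± 1.2 CPM in KO, and the difference of 1.53 between LAC and KO passed the test (adjusted p = 6.02e-09). Macrophage markers differed between these groups as well, with 26 of 29 higher in LAC and 2 lower, and their part in Slc16a3 was not tested. Slc16a1, the transporter MCT1, held 33.3, 33.8 and 34.5 CPM in QS and 33.8, 33.1 and 38.4 CPM in LAC. The groups overlapped, and the change of 0.05 had an interval from -0.10 to 0.19 (adjusted p = 0.525). Slc16a1 was lower in LAC than in KO, where it averaged 53.9 ± 1.86 CPM (log2 difference -0.61, adjusted p = 6.19e-06). Bsg and Emb, the chaperones that bring these transporters to the membrane, rose by 1.13 and 2.36.

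Histone acetyltransferases, deacetylases and related enzymes were lower rather than higher. Of 30, 3 were called higher (Hdac2, Hdac3 and Hdac6) and 19 lower, with a median log2 change of -0.52. Ep300, the acetyltransferase p300 that is also known to place lactyl groups on histones, went from 194, 186 and 174 CPM in QS to 118, 119 and 114 CPM in LAC (log2 change -0.66, SE 0.0614, adjusted p = 2.77e-07). Kat6a fell from 249 ± 8.01 to 80.8 ± 2.03 CPM. Ep300 stood at 120 ± 3.33 CPM in ACT and 106 ± 9.97 CPM in KO, and neither differed from LAC by the test (log2 differences -0.04 and 0.15, adjusted p = 0.603 and 0.0701). Against KO, 1 gene of the list was higher in LAC (3.33%), 7 were lower (23.3%) and 22 were not called. Of all genes, 20% were higher than in KO and 21% lower, the latter near the share of the list.

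All 13 mitochondrially encoded genes were lower in LAC than in QS, with a median log2 change of -1.61. Their summed level was 128042 to 129603 CPM in QS and 43903 to 46586 CPM in LAC. Sums in ACT (36461 to 41700 CPM) and KO (51476 to 56556 CPM) were also far under QS. mt-Co3, a subunit of cytochrome oxidase, went from 12116 ± 431 to 3048 ± 296 CPM. Nuclear genes of oxidative phosphorylation went the other way, with 22 of 34 called higher, 0 lower and a median of 0.34, and 17 of 22 citric acid cycle genes were higher and 2 lower. Cs, citrate synthase, rose from 148 ± 2.64 to 319 ± 10.1 CPM, and Pcx, the pyruvate carboxylase that feeds the cycle, from 10.5 ± 1.4 to 30.4 ± 5.11 CPM.

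Cell division genes rose in LAC. Of 27 mitosis genes, 26 were higher, each at least 2-fold, and only Pttg1 was lower (33.8 ± 3.28 to 13.6 ± 0.968 CPM). The median log2 change was 2.47. Anln, which builds the cleavage furrow, went from 9.71, 9.6 and 11.1 CPM to 160, 160 and 156 CPM, and the motor Cenpe from 6.3 ± 0.72 to 87.2 ± 5.22 CPM. Mki67, the proliferation antigen Ki-67 (chr7:135689784-135716361, minus strand), held 39.6, 40.1 and 44.5 CPM in QS and 161, 161 and 164 CPM in LAC. It was higher still in ACT (314 ± 2.46 CPM, log2 difference of LAC from ACT -0.95) and a little lower in KO (133 ± 6.23 CPM). Of 31 DNA replication genes, 27 were higher in LAC than in QS and 1, Mcm3, was lower (median 1.20). Rrm2, which makes deoxynucleotides, rose from 4.94 ± 1.12 to 128 ± 1.17 CPM and cyclin E1 (Ccne1) from 1.22 ± 0.378 to 32.9 ± 0.357 CPM.

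The promoters of the mitosis genes share short elements, and 4 are shown for that reason. Mitotic genes are known to be switched by complexes that bind CCAAT boxes and the cell cycle homology element TTTGAA. Stretches were taken from within 250 bases upstream of the start, in RefSeq's promoters of build GRCm38.p6, the build that mm10 names. Capitals mark CCAAT or TTTGAA on either strand in the stretch shown, which need not hold every match. Ccnb2 also matched TTTGAA and Cdk1 also matched CCAAT outside it. All 4 genes lie on the minus strand and are written 5′ to 3′ on that strand.
Cdc20, chr4:118437344-118437404: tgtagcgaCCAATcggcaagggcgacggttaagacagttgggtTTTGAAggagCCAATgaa
Ccnb2, chr9:70421563-70421583: gcgtctacCCAATagtgcgtc
Cdk1, chr10:69352914-69352935: gcggcgagTTTGAAactgctgg
Mki67, chr7:135716464-135716575: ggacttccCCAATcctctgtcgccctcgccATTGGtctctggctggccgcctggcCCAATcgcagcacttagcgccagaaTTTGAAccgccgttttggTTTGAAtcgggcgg
CCAAT occurred in 18 of 22 mitosis genes with a promoter in the table (81.8%) and in 40.5% of all 9634 genes with one. TTTGAA occurred in 9 of 22 (40.9%) against 12.8% of all. Across all 3901 genes that hold CCAAT, 1519 were higher and 1324 lower in LAC, and across all 9634 genes 3590 were higher and 3447 lower. A match describes the letters in this window and says nothing of binding.

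Targets of p53, which holds the cell cycle and is activated by DNA damage and other stress, rose beside the division genes. Of 25, 19 were higher (76%) and 5 lower (20%), against 37.4% and 36.2% of all genes. The median log2 change was 0.86. Ccng1, cyclin G1, went from 106, 112 and 103 CPM to 1249, 1248 and 1307 CPM (log2 change 3.56). Cdkn1a, the cyclin-dependent kinase inhibitor p21, went from 225, 223 and 220 CPM to 569, 524 and 545 CPM, Phlda3 from 12.4 ± 2.51 to 76.6 ± 2.85 CPM, and Zmat3 from 43.8 ± 1.14 to 178 ± 5.49 CPM. Lower members were Sesn1, Gadd45a, Fas, Xpc and Rrm2b. Against ACT, 21 of the 25 were higher in LAC (84%) and 1 lower (4%), with a median difference of 0.75. Of all genes, 27.8% were higher than in ACT and 21.7% lower. Cdkn1a stood at 276 ± 2.52 CPM in ACT and 644 ± 15.5 CPM in KO. Against KO, 6 of the list were higher in LAC (24%) and 11 lower (44%), with a median of -0.11. Of all genes, 20% were higher than in KO and 21% lower. ACT differed from LAC in Cre, with the deletion of Hk2, and in lactate, and KO received the same Cre virus as LAC. Cre and the deletion cannot be told apart here, and the part of either, or of lactate, in the p53 targets was not tested.

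Nearly all genes of the interferon response were lower in LAC. Of 44 genes, 41 were called lower, 40 of them at least 2-fold, against 36.2% of all genes called lower. The median log2 change was -3.90. Rsad2, viperin, an antiviral enzyme induced by interferon, lies at chr12:26442746-26456452 on the minus strand. It held 1840, 1894 and 1950 CPM in QS and 8.26, 9.39 and 11.1 CPM in LAC, a 197-fold loss (log2 change -7.49, SE 0.109, adjusted p = 5.63e-16). Ifit3 went from 1091 ± 28.3 to 9.3 ± 1.99 CPM, Isg15, a ubiquitin-like modifier, from 147 ± 4.35 to 3.26 ± 1.55 CPM, and the chemokine Cxcl10 from 381 ± 2.46 to 2.31 ± 0.649 CPM. Stat2, which carries the type I signal to the nucleus, fell from 288 ± 8.85 to 20.3 ± 0.835 CPM, and Irf7, its amplifier, from 530 ± 24.3 to 9.19 ± 1.78 CPM. The 2 genes called higher were Ifngr1 and Ifngr2, the chains of the interferon gamma receptor (log2 changes 0.64 and 0.32), and Irf3 was not called. Ifit3 has near-identical relatives, so its single value is uncertain.

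ACT and KO had low interferon genes too, with list medians of -4.19 and -4.11 against the same QS libraries. Rsad2 stood at 10.9 ± 0.99 CPM in ACT and 7.54 ± 1.06 CPM in KO. In direct tests LAC was higher than ACT in 13 of the 44 genes (29.5%) and lower in 12 (27.3%), with a median difference of -0.06. Of all genes, 27.8% were higher than ACT and 21.7% lower, which is near these shares. LAC was higher than KO in 13 (29.5%) and lower in 7 (15.9%), with a median of 0.13, against 20% and 21% of all genes. All 14 Kupffer markers were lower too, with sums of 6517 to 6698 CPM in QS and 962 to 1032 CPM in LAC. Of 29 macrophage markers 18 were lower and 10 higher, with sums of 6626 to 6778 against 7332 to 7346 CPM, or 6026 to 6146 against 3073 to 3085 CPM without Lyz2 and Gpnmb. The part of either in the interferon genes was not tested.

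The interferon-stimulated response element, to which complexes with STAT2 and IRF proteins bind, was searched in the same promoter windows. The pattern was GAAA, any 2 bases and GAAA, on both strands. Shown are 6 genes of the interferon list that held a match and were lower in LAC. Capitals mark matches that do not overlap, and the element reads TTTC, 2 bases and TTTC on the other strand. In Isg15 a further match overlaps both marked ones and spans the 2 bases in lower case between them.
Rsad2, chr12:26456555-26456580, minus strand: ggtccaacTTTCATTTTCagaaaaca
Ifit3, chr19:34583365-34583424, plus strand: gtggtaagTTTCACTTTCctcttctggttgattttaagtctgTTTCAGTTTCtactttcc
Isg15, chr4:156200867-156200904, minus strand: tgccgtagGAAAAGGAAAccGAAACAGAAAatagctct
Cxcl10, chr5:92349085-92349110, minus strand: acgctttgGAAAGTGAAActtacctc
Gbp2, chr3:142620596-142620621, plus strand: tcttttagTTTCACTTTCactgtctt
Stat2, chr10:128270268-128270293, plus strand: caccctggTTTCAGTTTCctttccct
The element was found in 15 of 35 interferon genes with a promoter in the table (42.9%) and in 323 of all 9634 (3.35%). Of those 323 genes, 154 were lower (47.7%) and 100 higher in LAC than in QS, where 35.8% of all genes with a promoter were lower. Outside the interferon and MHC class I lists, 136 of 305 were lower (44.6%). Here too, a match describes letters and says nothing of binding.

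Most genes of antigen presentation and most inflammatory mediators were also lower in LAC. All 16 MHC class I genes were lower, with a median log2 change of -2.51. H2-K1, a classical class I chain, went from 1474, 1419 and 1451 CPM to 187, 186 and 186 CPM, and B2m, its light chain, from 2600 ± 66.4 to 668 ± 26.5 CPM. H2 genes are near-identical and share reads, so that their single values are uncertain. Of 7 MHC class II genes, 6 were lower. Cd74, the invariant chain, went from 704, 638 and 660 CPM to 2.76, 1.9 and 1.93 CPM, while the protease Ctss was higher (549 ± 22.9 to 738 ± 21 CPM). Of 30 chemokines and cytokines, 21 were lower and 5 higher. Ccl2, which attracts monocytes, fell from 599 ± 19.4 to 30.7 ± 1.91 CPM, Ccl5 from 162 ± 6.12 to 0.409 ± 0.299 CPM, and Il1b went from 36.1 to 41.8 CPM to 0 in all LAC libraries, at least 126-fold lower. Higher members were Cxcl14, Cx3cl1, Il6, Lif and Ptgs2. Ptgs2, the inducible cyclooxygenase, went from 3.62, 5.76 and 5.43 CPM to 609, 584 and 634 CPM and was above both ACT (268 ± 8.49 CPM) and KO (291 ± 26 CPM). Lif rose from 3.71 ± 0.595 to 41.9 ± 3.75 CPM. Kupffer cells and macrophages express many of the class II and chemokine genes. All 14 Kupffer markers and 18 of 29 macrophage markers were lower in LAC, and their part in these genes was not tested. Of 28 immediate early genes, which tissue dissociation is known to induce, 21 were lower and 3 higher in LAC. Fos fell from 89.5 ± 4.83 to 17.7 ± 1.73 CPM and the heat shock gene Hspa1a from 83.5 ± 6.45 to 7.4 ± 0.872 CPM.

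Markers of hepatocytes and of resident liver cells fell in LAC. Of 29 hepatocyte markers, 28 were lower, and 9 were at 0 in all LAC libraries. The median log2 change was -5.77, or -6.21 with those 9 set to their bound. Alb, albumin (chr5:90460897-90476602, plus strand), went from 1115, 1135 and 1134 CPM to 0.622, 0.844 and 0.338 CPM, a log2 change of -9.47 that ends at a few reads a library. Ass1, a urea cycle enzyme also made outside hepatocytes, was higher (107 ± 6.79 to 263 ± 4.31 CPM). All 14 Kupffer markers were lower (median -4.65). Clec4f, a lectin of Kupffer cells, went from 358, 370 and 351 CPM to 0.873, 0.785 and 0.695 CPM, and Marco, a scavenger receptor, from 931 ± 35.8 to 2.33 ± 0.372 CPM.

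Macrophage markers split by gene. Of 29, 10 were higher (34.5%) and 18 lower (62.1%) than in QS, against 37.4% and 36.2% of all genes. Lyz2, lysozyme, rose from 500, 540 and 498 CPM to 2216, 2265 and 2240 CPM, Gpnmb, a glycoprotein of lipid-laden macrophages, from 92.7 ± 6.74 to 2024 ± 15 CPM, and Itgax from 3.31 ± 1.12 to 90.9 ± 3.85 CPM. Adgre1, the F4/80 antigen, fell from 322 ± 14.9 to 67.4 ± 2.43 CPM, and the growth factor receptor Csf1r from 300 ± 12.2 to 157 ± 1.78 CPM. LAC lay between the other cultured groups, with 27 of 29 markers lower than in ACT and 26 higher than in KO. Lysosomal genes, which macrophages express strongly, followed the same order. Of 32, 19 were higher and 7 lower in LAC than in QS, 28 lower and 0 higher than in ACT, and 26 higher and 0 lower than in KO. Atp6v0d2, a proton pump subunit of macrophages, had 0.277 ± 0.317 CPM in QS, 93.5 ± 4.82 in LAC, 339 ± 9.32 in ACT and 2.73 ± 1.21 in KO.

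Of 32 endothelial markers, 30 were lower in LAC and only Emcn was higher (74.9 ± 4.26 to 227 ± 7.23 CPM). The median log2 change was -1.88. Dnase1l3, a nuclease of sinusoidal cells, went from 1744 ± 39 to 10.5 ± 1.89 CPM, and the scavenger receptor Stab2 from 2012, 1907 and 1902 CPM to 399, 389 and 373 CPM. Pecam1, the adhesion molecule CD31, kept 40.1% of its QS level (890 ± 3.65 to 357 ± 10.8 CPM) but stood at 31 ± 0.188 CPM in ACT and 714 ± 12.2 CPM in KO. In direct tests, 30 of the 32 were higher in LAC than in ACT and 29 lower than in KO. Of 11 portal fibroblast markers, 9 were higher and 1 lower (median 2.93), and the members Myh11, Cnn1, Actg2 and Des are contractile genes as well. Thy1, the defining member, rose from 2.95 ± 0.608 CPM in QS to 11.2 ± 0.94 CPM in LAC (log2 change 1.64) and was at 64.1 ± 0.771 CPM in ACT.

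**Figure D5:**
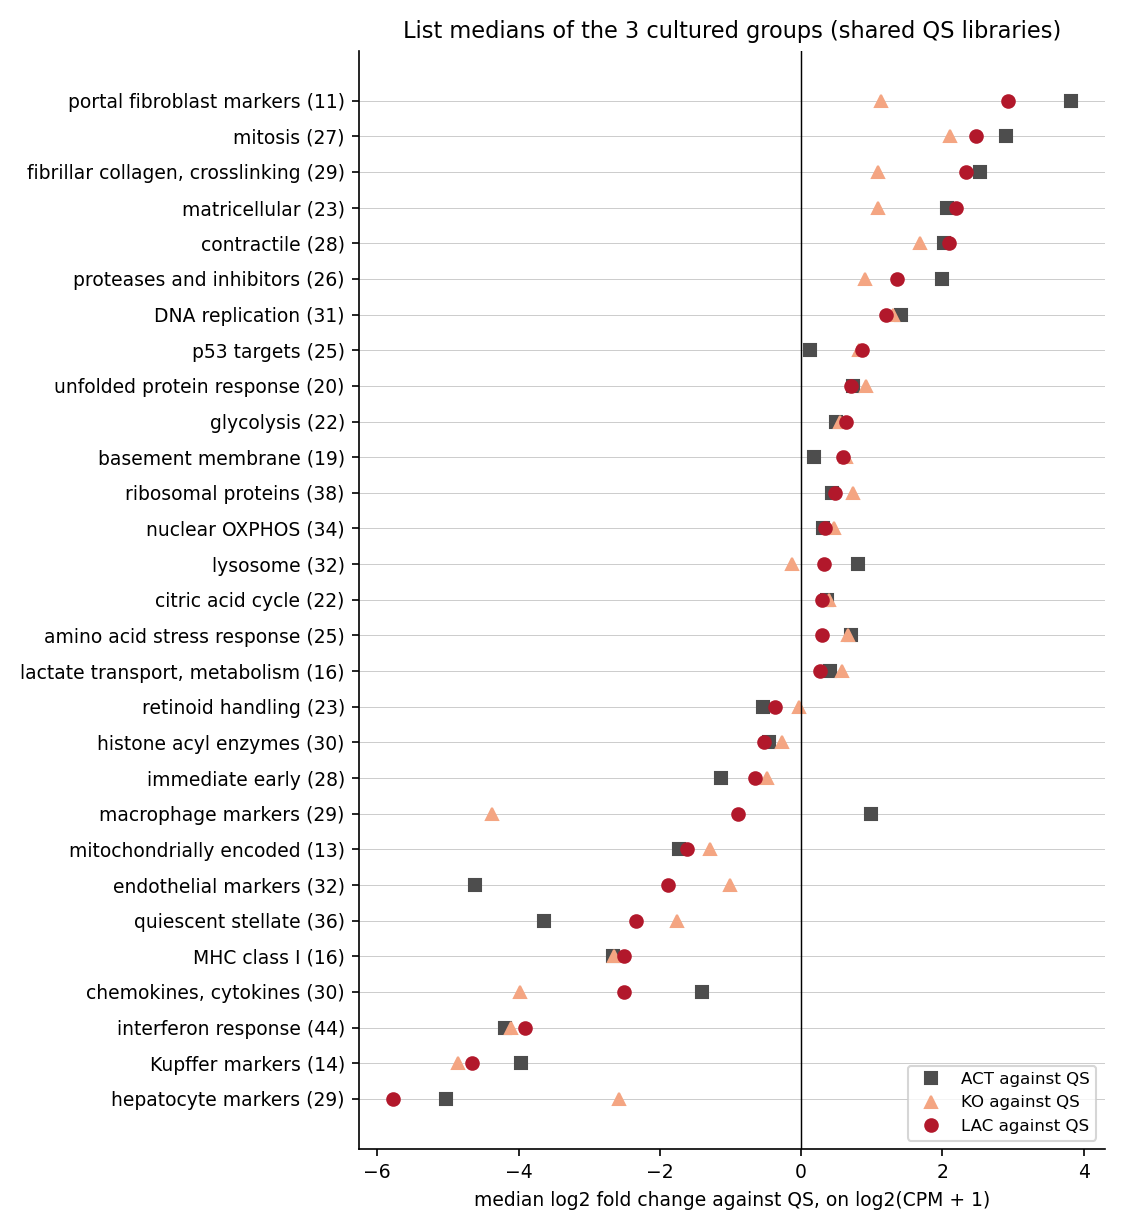
Median log2 fold change against QS of each of 29 gene lists in LAC, ACT and KO, which share the QS libraries. The groups lie close together for interferon and MHC class I genes, and lie widest apart for macrophage markers (-0.89 in LAC, 0.99 in ACT and -4.38 in KO), hepatocyte markers and endothelial markers.

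Lists of stress and biosynthesis showed smaller changes. Of 25 genes of the amino acid stress response, 14 were higher (56%) and 8 lower (32%), against 37.4% and 36.2% of all genes. The median of this list was 0.29. Its largest rises were in the serine synthesis gene Phgdh (0.945 ± 0.221 to 69.4 ± 2.12 CPM), the folate enzyme Aldh1l2 (1.66 ± 0.65 to 33.8 ± 1.48 CPM) and Psat1, also of serine synthesis (9.43 ± 4.14 to 127 ± 5.89 CPM), and the transporter subunit Slc3a2 fell from 358 ± 11.6 to 140 ± 5.09 CPM. Of 20 unfolded protein response genes, 16 were higher and 2 lower (median 0.70), among them the protein disulfide isomerase P4hb (452 ± 7.04 to 1381 ± 10.5 CPM) and the chaperone Calr (502 ± 24.9 to 1232 ± 14.2 CPM). Ribosomal protein genes were higher in 37 of 38 cases, with a median of only 0.48. Of 20 hypoxia genes 8 were higher and 8 lower (40% each), and of 26 sterol genes 9 were higher (34.6%) and 11 lower (42.3%), shares near the 37.4% and 36.2% of all genes. Among 35 genes of fatty acid and lipid droplet metabolism, 17 were higher (48.6%) and 10 lower (28.6%). The lipase Lpl rose from 157 ± 2.57 to 693 ± 12.3 CPM, and Plin2, which coats lipid droplets, fell from 597 ± 17.8 to 481 ± 9.91 CPM. Plin2 was at 1243 ± 12.2 CPM in ACT.

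A small set of genes stood near their quiescent level in LAC although they were far from it in ACT. Among genes of 10 CPM or more that changed at least 4-fold in ACT, 31 were within 0.25 of QS on the log2 scale in LAC, and 4 of those were still called. These values chose the genes and are given as a description. Prelp, a small matrix proteoglycan of quiescent stellate cells, held 548, 510 and 552 CPM in QS and 553, 502 and 492 CPM in LAC, while ACT averaged 59.9 ± 3.72 CPM and KO 237 ± 8.21 CPM. The imprinted gene Mest held 207, 209 and 218 CPM in QS and 212, 217 and 226 CPM in LAC, while ACT averaged 21 ± 0.9 CPM and KO 283 ± 13.1 CPM. Nrarp, a feedback regulator of Notch signalling, held 34.6 ± 1.92 CPM in QS and 31 ± 2.85 in LAC, against 1.52 ± 0.529 in ACT. Libraries of LAC and QS overlapped for Prelp, Mest and Nrarp. Arginase Arg1 was at 118 ± 5.11 CPM in QS, 102 ± 1.5 in LAC, 1390 ± 16.8 in ACT and 7.47 ± 1.05 in KO. Arg1 belongs to the macrophage list, whose sum has the same order over the cultured groups. Hepatocyte markers without Ass1 summed to 3698 to 3802 CPM in QS and 121 to 130 CPM in LAC. The part of macrophages or hepatocytes in Arg1 was not tested.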

How the data were processed

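RNA was sequenced from 12 libraries of mouse hepatic stellate cells, 4 groups of 3. Per the labels' protocols, the kit was strand-specific and selected mRNA. The deposited values are a normalized signal: the authors' CPM with a further factor per library, since column totals are not equal. The submitters' processing notes name build mm10, the quantifier kallisto (0.44.0), the trimmer cutadapt (1.18), FastQC (0.11.8) and edgeR (3.8); their order and settings are not given in the sources used here. Every listed gene reaches 1 CPM in at least 3 libraries. Values within 0.01 of a whole read made up 19.6% to 25.7% per library, so reads were not recovered and no count test was run; depth was estimated from repeated low values, 4350000 to 14000000 reads. Within groups, no 2 libraries were alike within counting error (chi-square per gene 2.06 to 4.55).

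limma 3.58.1 in R 4.3.3 was fitted to log2(CPM + 1) with 4 group means, 8 residual degrees of freedom, a trend and Benjamini-Hochberg adjustment per comparison, after tests on simulated data. Normalization sets levels relative to other genes and cannot show a change in RNA per cell. The members and the 38 gene lists were chosen with earlier results of these data known. Named were the 15 largest rises and falls (predicted genes excluded, 5 CPM or more, no overlap), up to 5 called members a list, 12 genes each of the patterns near QS and opposite to ACT, and genes fixed by name. Named after their values were seen were Smtn, Col14a1, Dcn, Col4a1, Kdr, Hgf, Gata6, Abcc9, Ednrb, Cygb, Crabp1, Pttg1, Cdkn1a, Isg15, Irf7, Ifngr1, Ifngr2, Gbp2, Stat2, H2-K1, B2m, Cxcl14, Lif, Ccl2, Fos, Ass1, Csf1r, Ctss, Emcn, Thy1, Slc3a2 and Plin2, list members given only by name and the 4 promoter genes of mitosis. Gene coordinates come from GENCODE M21. Promoters come from RefSeq and matched 9634 of the 12081 genes. Some items are not reported here.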

Additional observations from a re-analysis of the deposited data

How the results depend on the processing

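Over pseudocounts, filters, scalings, fit designs and left-out libraries, 21 results were followed. They were the counts of genes called in the 5 comparisons and the permutation p of Hk2. Values were scored as unchanged in 218 of 222 cases, and in 126 of 126 with 1 library left out. A count was scored as unchanged within 1.5 times its value. The Hk2 p was scored by its side of the threshold for calling genes. That p could not fall below 0.1, so its cases could not change and show nothing. The exceptions all came with a pseudocount of 5 and a fold of at least 2: 1130 genes higher in KO than in QS in place of 1718, 490 higher in LAC than in ACT in place of 781, and 349 higher and 113 lower in LAC than in KO in place of 618 and 264. An equal total per library moved the median of all genes from 0.01 to 0.10 and the calls in LAC against QS to 5004 higher and 3879 lower. Without marker and mitochondrial genes, an alternative chosen after seeing the data, 4206 were higher and 4539 lower. Replicate numbers did not pair the libraries (same-number correlations of deviations 0.06, -0.03 and 0.02 between LAC and QS), and the replicate block gave 4527 higher and 4378 lower.

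Direction changed only in named genes that were not called, of which all but Slc16a1 had been chosen for lying near QS. Values were -0.32 for Lrrn4 and -0.12 for Sez6l with quantile normalisation, 0.037 for Prelp and 0.013 for Pf4 with an equal total, and -0.011 for Mest and -0.0060 for Slc16a1 without marker genes. Leaving out 1 library gave -0.050 to 0.22 for Lrrn4, -0.11 to 0.041 for Alox15, -0.047 to 0.051 for Sez6l, -0.31 to 0.029 for Limch1, -0.29 to 0.084 for Pf4 and -0.015 to 0.088 for Slc16a1. Arg1 lost its call with an equal total and with quantiles (adjusted p = 0.155 and 0.176). The shallowest QS library, of 4350000 reads, sets the floor of 3 reads at 0.720 CPM, and rises that start under it are poorly resolved. In the LAC libraries this floor lies at 0.266 to 0.338 CPM, and falls that end near or under it are poorly resolved.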

Other observations

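A few genes lay on opposite sides of QS in LAC and in ACT, both called. They were picked for that pattern, and the comparisons share the QS libraries, so the values are a description. Higher than QS in LAC and lower in ACT were the desmosome protein Dsp (7.65 ± 1.82 CPM in QS, 44.9 ± 3.37 in LAC, 3.83 ± 0.691 in ACT, SD, n = 3 each), the thrombospondin Thbs2 (35.4 ± 3.84, 149 ± 4.73 and 22.6 ± 1.62 CPM), the secreted protein Ccdc3 (14.3 ± 1.82, 77.3 ± 4.72 and 10.5 ± 0.566 CPM) and the ligand Bmp10 (108 ± 2.69, 435 ± 2.14 and 100 ± 2.08 CPM). KO stood above QS in each, at 21 ± 2.16 CPM for Dsp, 61.3 ± 3.6 for Thbs2, 54.6 ± 4.23 for Ccdc3 and 351 ± 15.5 for Bmp10. Lower in LAC and higher in ACT were the acute phase protein Saa3 (29 ± 1.93, 4.6 ± 0.294 and 178 ± 9.73 CPM), the chemokine Ccl9 (210 ± 7.33, 34.2 ± 3.3 and 362 ± 9.5 CPM), the histidine-degrading enzyme Hal (11.7 ± 0.998, 0.407 ± 0.193 and 22.8 ± 1.02 CPM) and the complement gene C1qa (213 ± 8.54, 44.2 ± 0.459 and 242 ± 1.03 CPM). C1qa and Ccl9 are expressed by macrophages, whose marker sum was 7332 to 7346 CPM in LAC and 25767 to 26412 CPM in ACT.

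Prl2c2, a prolactin family gene at chr13:12996125-13005383 on the minus strand, had no read in any QS library and held 364, 377 and 377 CPM in LAC, at least 675-fold higher. It stood at 136 ± 3.12 CPM in ACT and 101 ± 3.82 CPM in KO, and has near-identical copies, so that its single value is uncertain. The serpin Serpinb9b rose from 1.33 ± 0.199 to 355 ± 4.01 CPM, above ACT (132 ± 3.65 CPM) and KO (240 ± 3.03 CPM).

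Epithelial and mesothelial genes were divided. The keratin Krt19 rose from 1.26 ± 0.385 to 24.3 ± 2.32 CPM, and the mesothelial transcription factor Wt1 from 0.934 ± 0.635 to 5.89 ± 0.691 CPM. Upk3b and Lrrn4, mesothelial surface genes, held 5.65 ± 1.05 and 1.91 ± 0.337 CPM in QS and 4.61 ± 0.623 and 2.12 ± 0.588 CPM in LAC. In ACT they stood at 58.4 ± 2.32 and 44.7 ± 2.67 CPM.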
